A study of Mus musculus with 12 samples.

Results

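The wild-type ventricle was described here by what its RNA held more and less of than a standard mixture of cultured cells. The series measured cardiac ventricle RNA of 12 mice of the strain C57B6, all 7 months old, on arrays with 2 colours. The 6 wild-type arrays (AMPK alpha 2 +/+, 1 animal each) were chosen by genotype, and the 6 arrays of animals without AMPK alpha 2 were not used. Every array compared heart RNA with the same universal mouse reference RNA, a commercial pool from 11 mouse cell lines, so each value is a log ratio of ventricle over reference. The heart sample carried Cy3 in WT replicates 1, 2 and 3 and Cy5 in WT replicates 4, 5 and 6, so dye orientation and animal cannot be told apart. Of 19087 genes named on the array, 18799 had values on at least 2 arrays of each orientation, and together with 9096 probes that carry no single gene name they made 27895 features.

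The adult ventricle is built mostly, by mass, of cardiomyocytes, which contract without pause, burn mainly fatty acids in densely packed mitochondria, and rarely divide. Between them lie endothelial cells, pericytes, fibroblasts and macrophages. Cell lines grow in rich medium and divide continuously, and the cell lines of a reference pool come from several tissues. A ratio above 0 means more of a transcript in the ventricle's RNA than in the pool's, and a ratio below 0 less, relative to where normalization put 0. Array medians lay near 0, so 0 is about the ratio of a typical probe and need not be an equal share of both RNAs. A ratio says nothing of which of 2 genes is the more abundant in the heart. In a whole tissue, more cells of a type and more RNA per cell cannot be told apart. A ratio near 0 is also what a probe gives where neither RNA holds the transcript, since the brightness of spots was not part of the data used.

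Ratios were taken to be on the log2 scale, although the base is not stated and natural logarithms were not excluded. The folds below rest on that reading. Array medians lay between -0.028 and 0.068. Correlations over probes were 0.911 to 0.940 between arrays of the same dye orientation and 0.886 to 0.899 between opposite ones. WT replicate 3 lacked 39.2% of its values, and the other arrays lacked 0.306% to 9.83%. No feature passed a test of the dye orientation (limma, 0 of 27895, smallest adjusted p = 0.117), but 4218 features had an unadjusted p under 0.05, and 163 differed by over 1 between the orientations. The SDs below include that difference, and the standard errors, which come from a fit with dye orientation as a term, do not.

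Features above and below the reference were about equal in number, which array medians near 0 largely set in advance. The largest ratios were on the heart side. In limma, 5475 features (19.6%) were above the reference and 5826 (20.9%) below it at an adjusted p under 0.05. The test beyond a ratio of 1, limma's treat, which is a change of over 2-fold, called 1478 above (5.3%) and 1099 below (3.94%). The groups of genes that follow hold named genes only. Among the 18799 named genes 23.5% were above and 24.8% below, with 6.73% past 1 above and 4.47% past 1 below. These shares of named genes are the background for the counts of each group. Calls were nearly balanced between the directions, but the tails were not: 389 features had a mean ratio over 3 above the reference and 91 had one over 3 below it, and over 5 there were 86 against 5. Of all features 74.0% lay within 0.5 of the reference.

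Genes that neither RNA should hold set the noise. The 986 measured olfactory, vomeronasal and trace-amine receptor genes, which act in the nose, had a median ratio of 0.057, and 90% of them lay between -0.158 and 0.296. Of these, 52 passed the test against 0 above the reference and 8 below, 6.09% in all, and 0 passed the test beyond 1 in either direction. A called ratio under 0.3 is therefore no larger than those of genes expected in neither RNA. In the accounts below, counts above and below the reference come from the test against 0. Counts past 1 come from the test beyond 1.

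**Figure D1:**
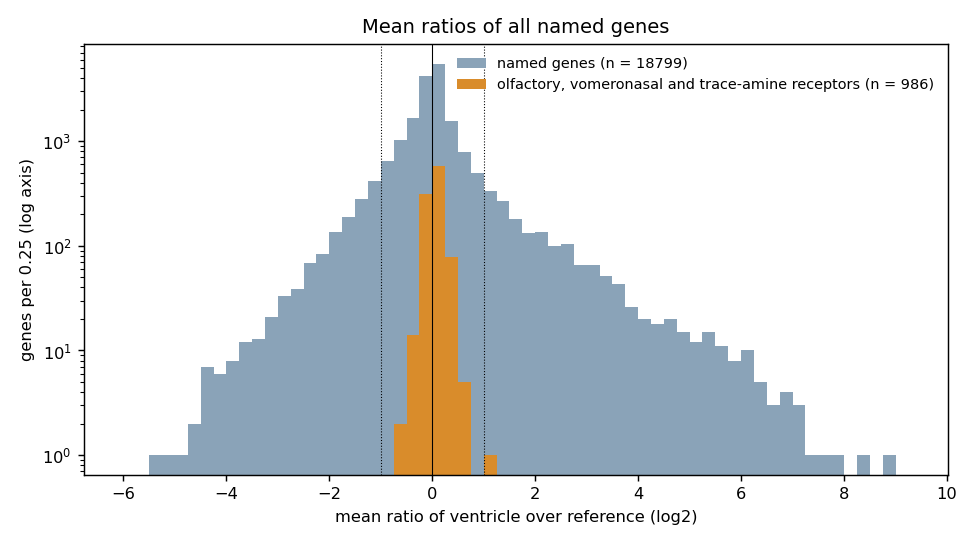
Number of named genes (log axis) by their mean log2 ratio of ventricle over reference across the wild-type arrays, in bins of 0.25, with the 986 olfactory, vomeronasal and trace-amine receptor genes in orange and dotted lines at ratios of -1 and 1. The right tail, to 8.84, is longer than the left, to -5.41, and the receptor genes sit around 0.

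The genes furthest above the reference were mostly those of the contractile filaments, of calcium cycling and of mitochondrial energy supply. Pln, which encodes phospholamban, the brake on the calcium pump of the sarcoplasmic reticulum, had the highest ratio of all genes. Its 5 measured arrays ran from 7.70 through a median of 8.64 to 9.59, a mean of 8.84 ± 0.74 (SD, n = 5) or 459-fold (treat adjusted p = 1.35e-08). Cox8b, a heart and muscle subunit of cytochrome oxidase, followed with 7.67 to 9.08 around a median of 8.17 (mean 8.31 ± 0.52, SD, n = 5). All measured arrays lay far above 0 for both genes, and both lack a value on WT replicate 3.

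Among genes measured on all 6 arrays, Tnni3, cardiac troponin I of the thin filament, stood highest. Its lowest, median and highest arrays were 7.27, 7.49 and 7.76, a mean of 7.53 ± 0.21 (SD, n = 6) or 184-fold (treat adjusted p = 1.68e-09). Ckmt2, the creatine kinase of muscle mitochondria, ran from 7.10 to 7.61 with a median of 7.39. Actn2, the alpha-actinin of the Z disc, ran from 6.55 to 7.37, Cox7a1, a muscle subunit of cytochrome oxidase, from 6.49 to 7.27, and Plin5, which coats lipid droplets in oxidative tissue, from 6.25 to 7.41. None of these ranges came near the reference.

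The rest of the 15 highest genes held more muscle proteins and a few of other cells. Nrap (6.33 ± 0.21) links actin filaments to the cell junctions, Tnnc1 (6.29 ± 0.19) is troponin C, Csrp3 (6.25 ± 0.19) is the muscle LIM protein and Trim54 (6.13 ± 0.47) is a ubiquitin ligase of striated muscle, each with n = 6. Tmem182 (6.23 ± 0.41), Fndc5 (6.16 ± 0.25), the precursor of irisin, and Apobec2 (6.16 ± 0.19), a deaminase relative of striated muscle, belong with them. Sparcl1 (6.63 ± 0.46), a secreted matrix protein of vessels, and Hbb-bt (6.41 ± 0.29), an adult beta globin, do not. Lrtm1 (6.83 ± 0.50) is a membrane protein with leucine-rich repeats. The SD over arrays was at most 0.50 for these genes.

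On the other side stood genes of dividing cells, of amino acid synthesis and of simple epithelia. Ifi202b, an interferon-inducible DNA-binding protein, was lowest among genes on all 6 arrays, with -7.44, -5.03 and -4.64 as its lowest, median and highest arrays (mean -5.41 ± 1.06, SD, n = 6, 42.5-fold, treat adjusted p = 1.77e-06). Its lowest value came from WT replicate 6, and the others lay between -5.64 and -4.64. Lgals3, galectin-3, ran from -5.69 to -4.20 (mean -5.06 ± 0.48) and Asns, asparagine synthetase, from -5.20 to -4.34 (mean -4.73 ± 0.35). Krt8, a keratin of simple epithelia, ran from -5.04 to -4.30, and its filament partner Krt18 (-4.83 ± 0.42, n = 5) lay beside it. Every array was below the reference for each of them.

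Most of the other lowest genes drive mitosis. Birc5 (-4.42 ± 0.31), the survivin of the chromosomal passenger complex, Cdc20 (-4.34 ± 0.31), an activator of the anaphase-promoting complex, Sgo1 (-4.28 ± 0.47), which guards centromere cohesion, Mki67 (-4.26 ± 0.39), the Ki-67 antigen, Ccna2 (-4.09 ± 0.33), cyclin A2, Kif20a (-4.08 ± 0.45), a kinesin of cytokinesis, and Cks2 (-3.96 ± 0.60), a partner of cyclin-dependent kinases, each had n = 6. Phgdh (-4.31 ± 0.31) and Psat1 (-4.05 ± 0.38) make serine. Pou2af1 (-3.96 ± 0.42) is a coactivator of B cells. Sapcd2 (-4.06 ± 0.68) differed with dye orientation, at -3.44 in the Cy3 arrays and -4.68 in the Cy5 arrays. The mean of the Cy5 arrays was below that of the Cy3 arrays for 15 of the 15 lowest genes, by a median of -0.61 (Cy5 minus Cy3), and for 14 of the 15 highest, by a median of -0.28. The part of dye and of animal in this cannot be told apart. The lowest ratio of any feature, -8.18 ± 1.02 (SD, n = 5), belonged to a probe with no gene name in the annotation used.

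**Figure D2:**
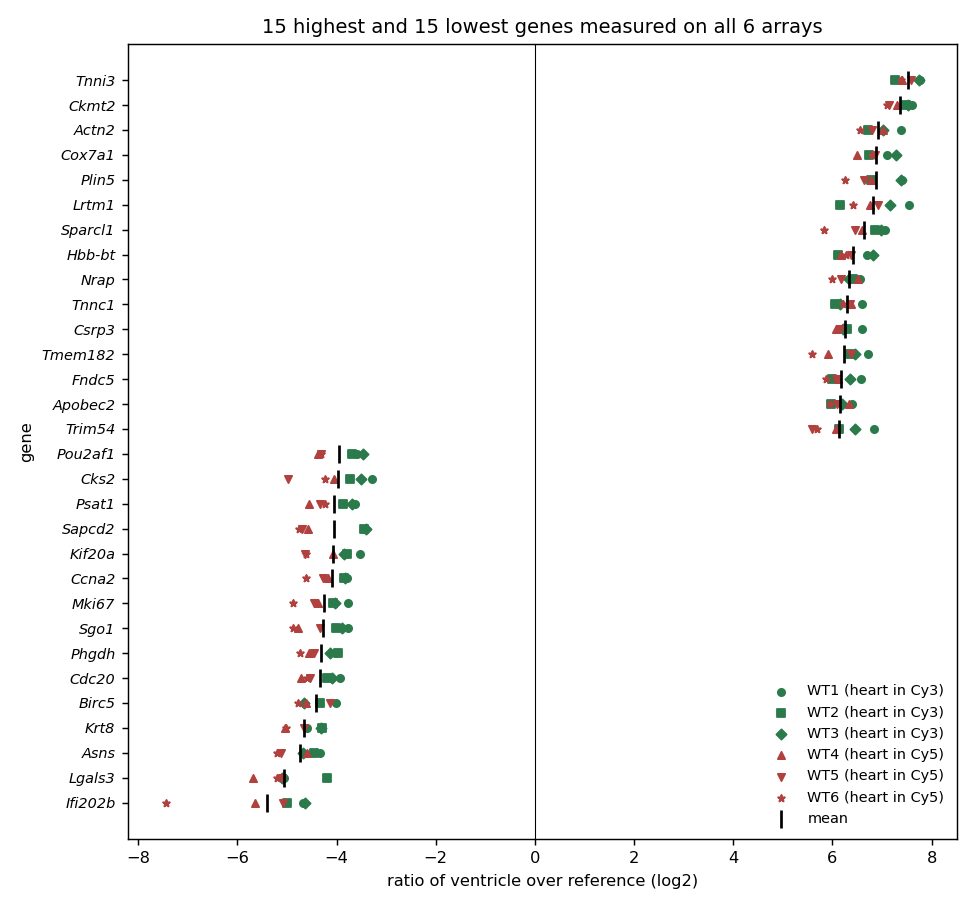
Log2 ratio of ventricle over reference on each wild-type array (points, green for heart RNA in Cy3, red for Cy5) and the mean (bar) for the 15 highest and the 15 lowest genes measured on all 6 arrays. All arrays lie above 5.5 for the highest genes and below -3.2 for the lowest, with WT replicate 6 at -7.44 apart from the others for Ifi202b.

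Sorted by function, the whole contractile apparatus was above the reference. All 23 measured sarcomere genes passed the test beyond 1, with a median ratio of 4.32 against 0.027 over all features and array medians between 3.84 and 4.83. After Tnni3 the highest were Mybpc3, cardiac myosin-binding protein C (6.72 to 7.68, mean 7.18 ± 0.41, n = 5), and Actn2. Myh6, the alpha myosin heavy chain of the adult mouse heart, ran from 5.71 to 6.05 (mean 5.91 ± 0.12, n = 6). The lowest were Myom2, an M-band protein (2.85 ± 0.29), Nebl, the nebulin-like protein of the Z disc (2.21 ± 0.30), and Pdlim5 (1.55 ± 0.12), which docks signalling enzymes at the Z disc. These low means came from probes that differ: the 5 probes of Pdlim5 had means from -0.62 to 4.53, and the 3 of these measured on all 6 arrays had -0.56, 4.53 and 4.53.

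Calcium handling and excitation followed, with exceptions. Of 16 calcium-cycling genes, 14 were above the reference and 11 passed the test beyond 1, with a median of 2.75. The median was 1.23 over the 11 of them measured on all 6 arrays, and 1.74 on WT replicate 3. Besides Pln, these were led by Hrc, a calcium-binding protein of the reticulum (6.22 ± 0.11, n = 5), Srl, sarcalumenin (5.33 ± 0.19, n = 6), and Casq2, the cardiac calsequestrin (5.33 ± 0.22, n = 5). Fkbp1b, the FK506-binding protein that sits on the ryanodine receptor, was the one member below the reference (-0.92 ± 0.16, n = 6). Its arrays ran from -1.19 to -0.76. Of 17 channels, pumps and connexins, 14 were above and 9 past 1, from Abcc9, the regulatory subunit of the heart's ATP-sensitive potassium channel (4.43 ± 0.23, n = 5), and Kcnq1, of the slow delayed rectifier (3.71 ± 0.32, n = 5), to the pacemaker channels Hcn2 (0.20 ± 0.32) and Hcn4 (-0.14 ± 0.25), which did not pass. Of 15 heart receptors and their signalling partners, 10 were above and 4 past 1, among them Agtr1a, the angiotensin receptor (2.71 ± 0.38), and the adenylyl cyclases Adcy5 (1.89 ± 0.21, n = 5) and Adcy6 (1.72 ± 0.23).

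Most genes of the oxidative lists were above the reference. Of 26 genes for uptake and oxidation of fatty acids, 25 were above and 22 past 1, with a median of 3.38. Fabp3, the heart fatty acid binding protein, ran from 5.97 to 6.83 (mean 6.48 ± 0.32, n = 5). Lpl, lipoprotein lipase, ran from 5.37 to 6.36 (mean 5.69 ± 0.38, n = 6), and Acadm, the dehydrogenase for medium-chain fatty acids, from 4.48 to 5.74 (mean 5.20 ± 0.46, n = 5). Cpt1a, the liver form of the enzyme that admits fatty acids to mitochondria, was the one gene that did not pass (-0.04 ± 0.26, n = 6). Slc27a1 (1.12 ± 0.35), a fatty acid transport protein, Hadha (1.14 ± 0.22), the alpha subunit of the trifunctional protein, and Ucp3, an uncoupling protein (1.51), passed only against 0. Of the 3 Hadha probes 1 had a mean of 3.17 and the others -0.03 and 0.24.

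All 23 genes of the tricarboxylic acid cycle and of pyruvate entry passed the test beyond 1, with a median of 2.60. Pdk4, the kinase that shuts pyruvate dehydrogenase, was highest but also the most uneven (6.16, 5.65, 5.86, 6.83 and 3.70 on replicates 1, 2, 4, 5 and 6). Idh3b, of the NAD-dependent isocitrate dehydrogenase, had 3.73 ± 0.27 (n = 5) and Sdhb, the iron-sulfur subunit of succinate dehydrogenase, 3.60 ± 0.37 (n = 5). All 16 genes of ketone and branched-chain amino acid oxidation were above the reference, 14 of them past 1, led by Aldh6a1 (3.80 ± 0.35), of valine breakdown, Oxct1 (2.92 ± 0.40), the enzyme that activates ketone bodies, and Bckdha (2.88 ± 0.14), of the branched-chain ketoacid dehydrogenase, each with n = 6.

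Respiratory chain genes were mostly above the reference, with exceptions among the subunits that have forms for different tissues. All 35 complex I genes were above and 32 past 1 (median 2.68), with Ndufa5 highest at 3.77 ± 0.21 and Ndufv3 lowest at 0.53 ± 0.22 (n = 6 each). The 3 probes of Ndufv3 had means from -0.61 to 2.67. Of 23 genes of complexes III and IV, 21 were above and 20 past 1 (median 2.90). The 2 genes below were Cox6a1 and Cox8a (-0.34 ± 0.36, n = 6), the forms of 2 cytochrome oxidase subunits that are used outside muscle. Cox6a1 lay at 0.06 in the mean of the Cy3 arrays and -1.90 in that of the Cy5 arrays, so its sign differed with dye orientation. Cox8a passed the test only narrowly and did not when WT replicate 1, 2, 3, 4 or 6 was left out (ratios of -0.39 to -0.22). Of 16 ATP synthase genes 15 were past 1 (median 2.35). The exception was Atpif1, the inhibitor of the enzyme (0.25 ± 0.43, n = 5). The mitochondrial ribosome stood lower: 60 of its 75 genes were above the reference, 2 below, and 16 past 1, with a median of 0.76. Its highest members were Mrpl55 (2.90 ± 0.28) and Mrpl42 (2.40 ± 0.11), and Mrps10 (-0.65 ± 0.13) was lowest. The transfer of energy to the filaments was covered by 12 genes, 8 of them past 1 above, from Ckmt2 and Ckm, the cytosolic muscle creatine kinase (6.35 ± 0.33, n = 5), to Gamt (-0.45 ± 0.08) and Gatm (-0.80 ± 0.19), the 2 enzymes of creatine synthesis, which were below.

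Genes of glucose uptake and glycolysis lay on both sides. Of 19 genes 9 were above and 9 below the reference, 6 and 4 of them past 1, and the median was -0.03. Over the 10 of these genes measured on all 6 arrays it was -0.88. Slc2a4, the insulin-responsive glucose transporter of muscle and fat, ran from 6.82 to 7.32 with a median of 7.07 (mean 7.09 ± 0.17, n = 5, treat adjusted p = 4.20e-09). Slc2a1, the widely used glucose transporter, ran from -3.18 to -2.91 with a median of -2.94 (mean -3.04 ± 0.13, n = 5, treat adjusted p = 2.68e-07). Pgam2 (5.61 ± 0.24) and Pgam1 (-2.98 ± 0.27), the muscle and general phosphoglycerate mutases with n = 5 each, stood apart in the same way. Aldoc, a form of aldolase, was also past 1 below (-1.61 ± 0.33, n = 6).

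The contrast between such relatives was followed over 29 families, of which 27 had both genes measured. Each pairs a form known for use in striated muscle, the muscle member, with a related form, the other member. The other member is not always a form from outside muscle. Casq1, the partner of Casq2, is itself among the skeletal muscle markers used below. The muscle member was past 1 above the reference in 26 pairs, and the other member was below it in 13, above in 6 and past neither side in 8. Medians over the pairs were 5.51 and -0.09. Since the pairs were put together for their tissue pattern, and with results of these data known, their direction is a description. The muscle member had the higher ratio on every array that measured both in 26 pairs. The exception was glycogen synthase, where Gys1 (0.08 ± 0.24, n = 5) and Gys2 (-0.03 ± 0.17, n = 6) both lay at the reference.

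Pairs of very general function showed the same contrast. Eef1a2, the translation elongation factor of muscle and neurons, ran from 4.66 to 5.46 (mean 5.16 ± 0.33, n = 6), and the general form Eef1a1 from -3.26 to -2.24 (mean -2.84 ± 0.36, n = 6). Rpl3l, a ribosomal protein of striated muscle, ran from 5.17 to 6.07 (mean 5.66 ± 0.36, n = 6), and its general relative Rpl3 from -2.80 to -2.15 (mean -2.52 ± 0.23, n = 6). Ldhb, the lactate dehydrogenase subunit of heart, had 5.51 ± 0.76 (n = 5) and Ldha, the subunit of fast muscle and of many dividing cells, -0.93 ± 0.17 (n = 6). Actc1, cardiac actin, had 5.80 ± 0.37 and Actb, cytoskeletal actin, -1.25 ± 0.26, with n = 5 each. In 4 pairs both members were past 1 above the reference: the muscle and brain creatine kinases Ckm and Ckb (2.30 ± 0.20), the coactivators Ppargc1a (3.44 ± 0.18) and Ppargc1b (2.46 ± 0.23), Cox7a1 and Cox7a2 (1.65 ± 0.55), and Myl2 (5.24 ± 0.23) and Myl12a (1.66 ± 0.21). Whether probes of related genes bind each other's transcripts was not tested.

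**Figure D3:**
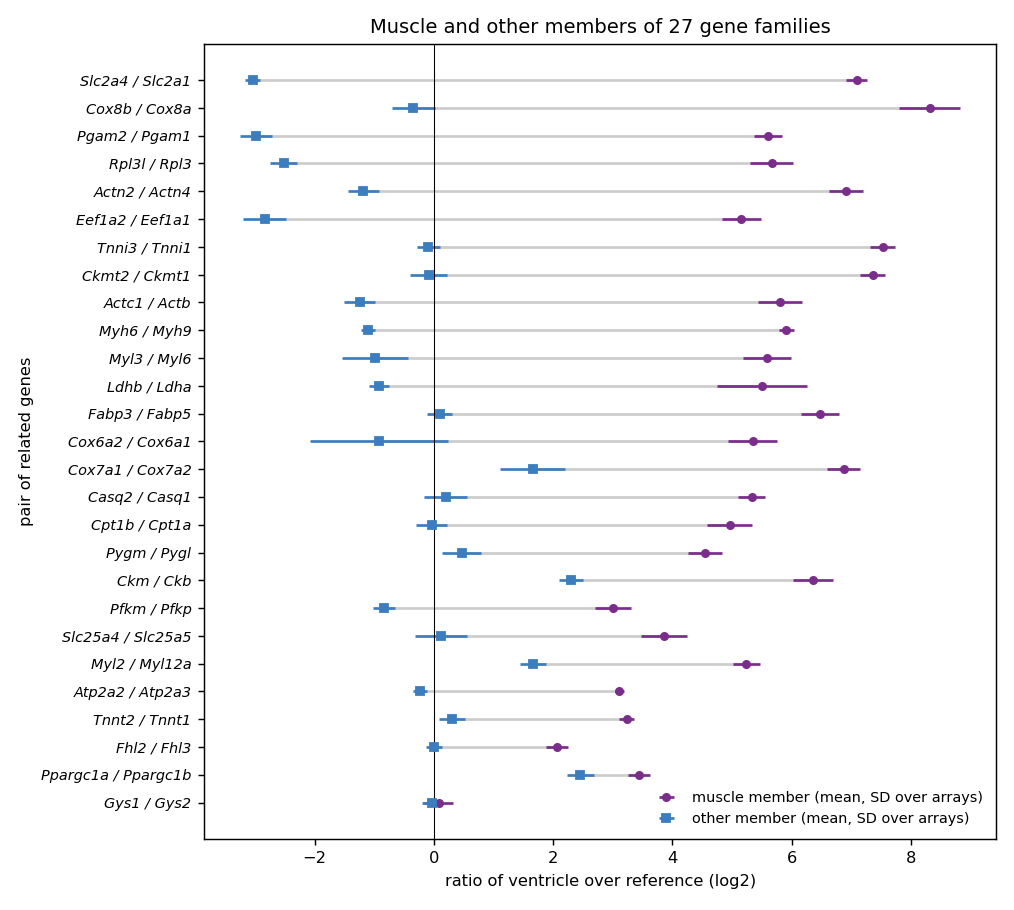
Mean log2 ratio of ventricle over reference with its SD over arrays (n = 4 to 6) for the muscle member (purple circles) and the other member (blue squares) of 27 gene families, ordered by the distance between them. Slc2a4 at 7.09 and Slc2a1 at -3.04 lie furthest apart, and Gys1 and Gys2 lie together at the reference.

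Among regulators, a few genes stood far above the reference and most near it. Of 23 cardiac transcription factors and cofactors 20 were above and 9 past 1 (median 0.92), led by Hopx, a homeodomain-only protein (4.59 ± 0.17, n = 6), Ankrd1, a stress-responsive cofactor (3.96 ± 0.48, n = 6), and Irx4, a factor of ventricular identity (3.71 ± 0.30, n = 5). Tbx18, of the epicardium and sinus node, lay at -0.13 ± 0.25. Of 20 nuclear receptors and coactivators of metabolism 15 were above and 6 past 1 (median 0.79). Rxrg, a retinoid X receptor, ran from 5.46 to 6.83 (mean 6.08 ± 0.47, n = 6), and Ppara, the fatty acid receptor of oxidative tissues, from 4.15 to 4.48 (mean 4.27 ± 0.13, n = 5). Ppargc1a, which drives mitochondrial genes, ran from 3.26 to 3.76. Nrf1, a factor for nuclear genes of mitochondria, was the 1 member below (-0.47 ± 0.10, n = 6). Of 18 clock genes 2 were past 1, Hlf (2.15 ± 0.41, n = 6) and Nr1d2 (1.40 ± 0.21, n = 5), both above. Of the catalytic AMPK subunits, Prkaa2 (4.10 ± 0.09, n = 6) was past 1 above and Prkaa1 (-0.89 ± 0.16, n = 6) below the reference.

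The promoters of the genes at both ends were read for known motifs, since these genes lay together at the ends of the range. Sequences were RefSeq promoters of GRCm38.p6, for genes with exactly 1 annotated start: 125 of the 200 highest genes, 138 of the 200 lowest and 12410 of all measured genes. In the 250 bases before the start, on both strands, a MEF2 site was present in 9.6% of the highest, 1.45% of the lowest and 2.55% of all promoters. The element of the oestrogen-related receptors, AAGGTCA, was present in 8.0%, 2.17% and 3.34%. The E2F site TTTNNCGC was present in 2.4%, 7.97% and 5.99%, and the GC box GGGCGG in 33.6%, 54.3% and 47.1%. Shares of AGATAA, the GATA site, were 12%, 6.52% and 8.45%, those of CATTCC, the M-CAT element, 16.8%, 12.3% and 11.3%, those of CCAAT 39.2%, 49.3% and 36.3%, and those of TTTGAA, the CHR element of cell-cycle genes, 14.4%, 17.4% and 13.99%. The TATA box TATAAA was present in 14.4%, 11.6% and 11.6%, and the MEF2 site contains it in 4 of the 12 highest promoters that hold one. The CArG box was present in 1.6%, 0.72% and 1.29%, and the NRF1 site in 0.8%, 0.72% and 1.15%. A match is a stretch of letters and not a bound site.

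The following stretches of 60 bases, all before the start and given on the gene's own strand, show where the motif lies in genes described here. Capitals mark the motif: the MEF2 site in the first 3, the AAGGTCA element or its reverse complement in the next 2, the E2F site in Mcm6 and the CHR element in Cdc20.
Mybpc3, chr2:91118029-91118088, plus strand: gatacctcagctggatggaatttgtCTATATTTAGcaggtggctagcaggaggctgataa
Pgam2, chr11:5803842-5803901, minus strand: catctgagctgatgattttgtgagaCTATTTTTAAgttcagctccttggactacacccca
Casq2, chr3:102086321-102086380, plus strand: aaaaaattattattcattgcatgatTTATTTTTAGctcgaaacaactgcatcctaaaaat
Tmem182, chr1:40805459-40805518, plus strand: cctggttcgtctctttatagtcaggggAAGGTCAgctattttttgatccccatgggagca
Acadm, chr3:153944834-153944893, minus strand: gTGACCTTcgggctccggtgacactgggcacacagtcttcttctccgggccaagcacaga
Mcm6, chr1:128359719-128359778, minus strand: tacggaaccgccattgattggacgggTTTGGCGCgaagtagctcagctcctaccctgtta
Cdc20, chr4:118437344-118437403, minus strand: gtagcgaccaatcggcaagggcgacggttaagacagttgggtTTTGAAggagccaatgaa
In Mybpc3 the MEF2 site begins 90 bases before the start and in Pgam2 80. In Cdc20 the CHR element begins 18 bases before the start, and the E2F site of Mcm6 is 1 of 3 in its promoter.

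Genes of growth lay below the reference. All 31 measured genes of DNA replication were below it and 22 past 1, with a median of -2.15. Cdt1, a licensing factor, ran from -4.54 to -3.90 (mean -4.26 ± 0.28, n = 5), Prim1, the primase subunit, had -3.87 ± 0.31 (n = 6) and Mcm6, a subunit of the replicative helicase, -3.70 ± 0.44 (n = 5). Of 29 mitosis genes 28 were below and 22 past 1 (median -2.23). The exception was Pttg1, securin, which was above the reference by 1.02 ± 0.26 (n = 5), with arrays from 0.74 to 1.30. The G1 cyclins, kinases and inhibitors were divided: 15 of 26 were below and 5 above, with Myc (-2.68 ± 0.36, n = 6) and Cdk4 (-2.19 ± 0.22, n = 6) among the lowest. Highest were Cdkn1c, the inhibitor p57 (3.14 ± 0.59, n = 6), and E2f6, a repressor of the E2F family (2.88 ± 0.19, n = 6). Cdkn1c ran from 2.03 to 3.80.

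Synthesis of building blocks and of ribosomes went with them. Of 17 genes of serine, one-carbon and amino acid supply 16 were below and 11 past 1, with a median of -1.94, and Asns, Phgdh and Psat1 at the bottom. Of 19 nucleotide synthesis genes 17 were below and 6 past 1, down to Tk1, thymidine kinase (-2.97 ± 0.16, n = 6), and Rrm2, of ribonucleotide reductase (-2.92 ± 0.53, n = 6). Of 22 genes of ribosome biogenesis 19 were below and 6 past 1, with Npm1, nucleophosmin (-2.66 ± 0.48, n = 6), and Nop58, a nucleolar protein (-2.16 ± 0.27, n = 6), lowest. Of 71 cytosolic ribosomal protein genes 66 were below and 26 past 1, with a median of -1.20 and array medians of -1.01 to -0.77 in the Cy3 arrays and -1.68 to -1.12 in the Cy5 arrays. Rpl14 was lowest (-2.85 ± 0.16, n = 5), and Rpl21 was the 1 member above the reference (0.29 ± 0.24, n = 6). That ratio of Rpl21 is no larger than those of genes expected in neither RNA.

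Of 20 aminoacyl-tRNA synthetases 18 were below and 3 past 1. The 1 above was Fars2 (1.60 ± 0.17, n = 5), which works inside mitochondria. All 8 genes of the cytosolic chaperonin CCT were below the reference, from Cct3 (-0.40 ± 0.10) to Cct5 (-1.43 ± 0.27, n = 5), and 3 were past 1. The 31 proteasome genes did not follow: 14 were above, 5 below, 0 past 1, and the median was 0.10. Of 16 genes of cholesterol synthesis 14 were below and 4 past 1, with Sqle, squalene epoxidase, far below the rest at -3.72 ± 0.26 (n = 5).

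Small heat shock proteins, which hold unfolding proteins in muscle, were all above the reference. All 7 were past 1, with a median of 3.62, from Hspb1 (3.14 ± 0.24) and Cryab, alpha-B crystallin (3.24 ± 0.10), to Hspb6 (4.35 ± 0.35) and Hspb7 (4.95 ± 0.17), each with n = 6. The 2 probes of Cryab had means of 1.185 and 5.264, so its place in the list is that of their average. Antioxidant enzymes were split, with 13 of 23 above and 6 below. Gpx3, the plasma glutathione peroxidase (3.53 ± 0.42), Sod2, the mitochondrial superoxide dismutase (2.94 ± 0.53), and Mgst3, a microsomal glutathione transferase (2.66 ± 0.12), were highest with n = 6. The 3 probes of Mgst3 had means from 0.569 to 3.885. Hmox1, heme oxygenase (-2.15 ± 0.18, n = 5), and Txn1, thioredoxin (-1.53 ± 0.13, n = 5), were lowest. Among 22 genes of autophagy and lysosomes Map1lc3a, an LC3 of autophagosomes, was highest (3.56 ± 0.15, n = 6) and the proteases Ctsz (-2.35 ± 0.17, n = 6) and Ctsl (-1.58 ± 0.51, n = 5) were lowest.

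**Figure D4:**
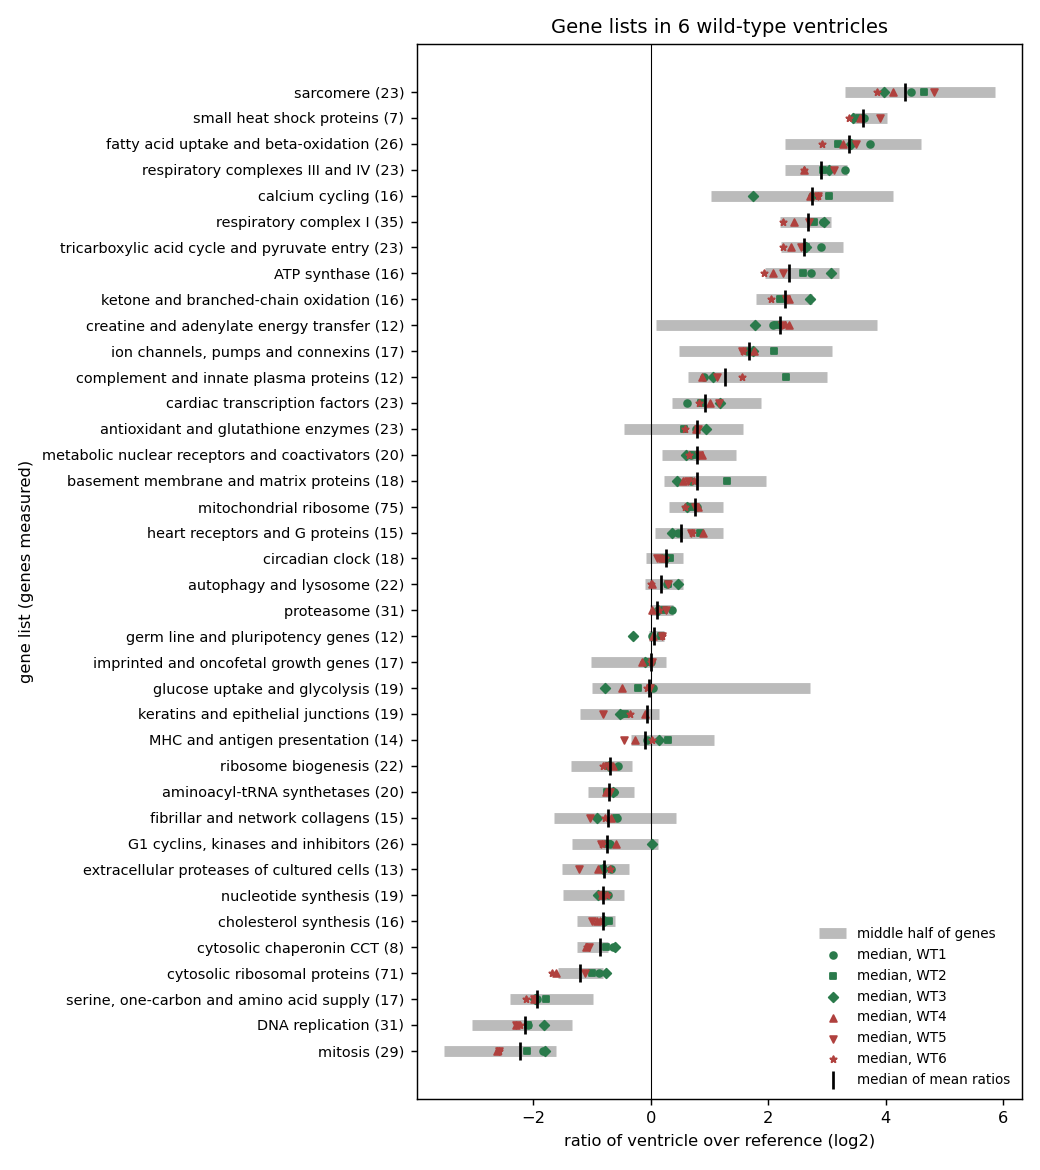
Median log2 ratio of ventricle over reference of 38 gene lists on each wild-type array (symbols, green for heart RNA in Cy3, red for Cy5), the median of the genes' mean ratios (bar) and the range from the lower to the upper quartile of the genes (grey). Sarcomere, small heat shock and oxidative lists lie above 2, and mitosis and DNA replication lie below -2 on the median of means.

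Markers were read to describe the cells of the tissue. They were chosen with earlier results of these data known, so they are not a check of the label. All 14 cardiomyocyte markers were past 1 above the reference (median 5.69), and the 14 proliferation markers all lay below, 12 past 1 (median -2.55). All 12 endothelial markers were above and 10 past 1 (median 2.45), from Emcn, endomucin (5.33 ± 0.45, n = 6), and Robo4 (4.79 ± 0.12, n = 5) to Pecam1 (0.54 ± 0.24, n = 6), whose 2 probes had means of -0.02 and 1.10. Of 11 smooth muscle and pericyte markers 9 were above, 1 below and 4 past 1 above (median 1.03). Highest were Rgs5 at 5.22 ± 0.39 (n = 6), Abcc9 at 4.43 ± 0.23 (n = 5) and Kcnj8 at 4.33 ± 0.34 (n = 6). Pdgfrb and Cspg4 lay at 0.77 and 0.37, and Acta2, smooth muscle actin, at 0.04 ± 0.29. The 3 measured markers of red blood cells were past 1 above, Hba-a1 at 5.14 ± 0.39 and Alas2, the heme enzyme of their precursors, at 4.70 ± 0.28 (n = 6 each). All 6 lung and all 6 liver markers failed the test against 0. Of 12 skeletal muscle markers 4 were past 1 above, namely Ckm, which the heart also uses, Myh4 (2.96 ± 0.24), Atp2a1 (2.30 ± 0.22) and Myh8 (2.09 ± 0.29). The probes of the last 3 differed, with lowest means of -0.05, -0.15 and 0.06 and highest means of 6.00, 4.69 and 5.64. Of the other 8, 3 were below the reference, down to Actn3 (-1.30 ± 0.37, past 1), and 5 passed neither side.

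Fibroblast and macrophage markers were divided. Of 11 fibroblast markers 6 were above and 5 below. Lum, lumican (4.08 ± 0.41, n = 5), Dpt, dermatopontin (2.51 ± 0.27, n = 6), and Dcn, decorin (1.73 ± 0.27, n = 5), were past 1 above, and the collagen I genes Col1a1 (-1.61 ± 0.15, n = 5) and Col1a2 (-1.84 ± 0.24, n = 6) past 1 below. The 2 probes of Col1a2 had means of -3.221 and -0.4537. Of 15 collagens 9 were below and 4 above, the latter being Col4a1 (0.66 ± 0.18), Col4a2 (1.08 ± 0.18), Col14a1 (0.87 ± 0.34) and Col15a1 (0.79 ± 0.49), of which the first 2 form basement membrane. Among other matrix genes Vtn, vitronectin, was highest (4.08 ± 0.37, n = 6) and Fn1, fibronectin, lowest (-2.01 ± 0.20, n = 6). The 3 probes of Fn1 had means from -3.456 to -0.4845. The macrophage genes C1qa (3.43 ± 0.34), Cd163 (2.73 ± 0.58) and Mrc1 (2.17 ± 0.25), with n = 5 each, were past 1 above, and Cd14, a receptor for bacterial lipid, past 1 below (-2.44 ± 0.33, n = 6). None of 8 lymphocyte markers was above the reference, and 4 were below, with the B cell genes Cd79b (-2.82 ± 0.37, n = 6) and Ms4a1 (-1.98 ± 0.29, n = 5) past 1.

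Of 14 genes of antigen presentation 4 were above, 5 below and 5 past neither side. H2-Eb1 (3.03 ± 0.40) and H2-Ab1 (2.27 ± 0.22), of class II, were past 1 above the reference with n = 6, whereas B2m, the light chain of class I, was below (-0.64 ± 0.26, n = 6). Complement genes were mostly above, 10 of 12, with Serping1, the C1 inhibitor, at 4.13 ± 0.41 (n = 6). The genes chosen to mark the reference lines were mixed. Of 13 extracellular proteases and related genes of cultured cells 12 were below, and of 19 keratins and epithelial junction genes 9 were below and 3 above. Dsp, desmoplakin, which joins epithelial cells and also cardiomyocytes, was the highest of these at 5.46 ± 0.15 (n = 6). Of 17 imprinted and oncofetal growth genes 4 were above, 6 below and 7 past neither side, with a median of 0.0026. Dlk1 (-2.97 ± 0.21), Hmga2 (-2.35 ± 0.45) and Afp, alpha-fetoprotein (-1.94 ± 0.33), were past 1 below with n = 6, and Cdkn1c was past 1 above. Of 12 germ line and pluripotency genes 9 did not pass, and Tex19.1 was past 1 below (-1.85 ± 0.20, n = 6).

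Wild-type hearts of the same dye orientation were alike in most genes, and a few genes separated 1 or 2 animals. Among 12254 genes measured on all 6 arrays the median residual SD was 0.172, and 21 genes had one over 1. The residual SD leaves out any difference between the animals of the 2 dye orientations. The median SD over arrays, which includes that difference, was 0.214 over all 18799 named genes. Myl4, the atrial essential myosin light chain, was the most variable, at 5.64 in WT replicate 2 and 3.69 in WT replicate 6 but between -0.30 and 0.08 in the other 4. Sln, sarcolipin, which inhibits the calcium pump mainly in atria, followed with 3.79 and 2.85 in the same animals and -1.40 to 0.19 in the others. Myl7, the atrial regulatory light chain, ran from 0.88 to 7.19 over 5 arrays, with WT replicate 2 highest and no value in WT replicate 6. The median of the 8 measured atrial markers was 3.55 in WT replicate 2 and 1.37 in WT replicate 6, against 0.02 to 0.73 in the others. In WT replicate 6, which lacks Myl7, that median was the value of Stard10, which was 1.32 in WT replicate 3. Stard10 (2.98) and Dkk3 (3.31) were highest in WT replicate 2. The other markers did not follow: Nppa was high on every array (4.42 to 5.63) and Nr2f2 below the reference on every array (-1.09 to -0.50). Bmp10 lay at -0.12 in WT replicate 2. The part of atrial tissue in these values was not tested.

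WT replicate 2 also stood alone in several genes of fat. Adipoq, adiponectin, was 3.93 there and between -0.25 and 0.39 elsewhere. Ucp1, the uncoupling protein of brown fat, was 3.81 there and between -0.08 and 0.32 elsewhere. Cidec, a lipid droplet protein of fat cells, was 3.45 there and between -0.16 and 0.52 elsewhere. The median of the 7 measured adipocyte markers was 3.45 on that array and -0.01 to 0.32 on the others, but Lep, leptin, was 0.07 there and -0.06 to 0.29 elsewhere. Fabp4, which is also made by heart endothelium, was high on every array (5.42 to 5.84). Comp, a cartilage matrix protein, was 4.66 there and 0.32 to 1.59 elsewhere. The part of fat tissue in these values was not tested. Ddx4, a germ line helicase, was 2.65 in WT replicate 2, and Ctsw, a protease of killer lymphocytes, 2.76. S100a9, a protein of neutrophils, was above the reference in all animals, from 1.80 to 4.68, with WT replicate 5 highest. Without WT replicate 2 the fit called 1388 features past 1 above the reference and 969 below it.

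**Figure D5:**
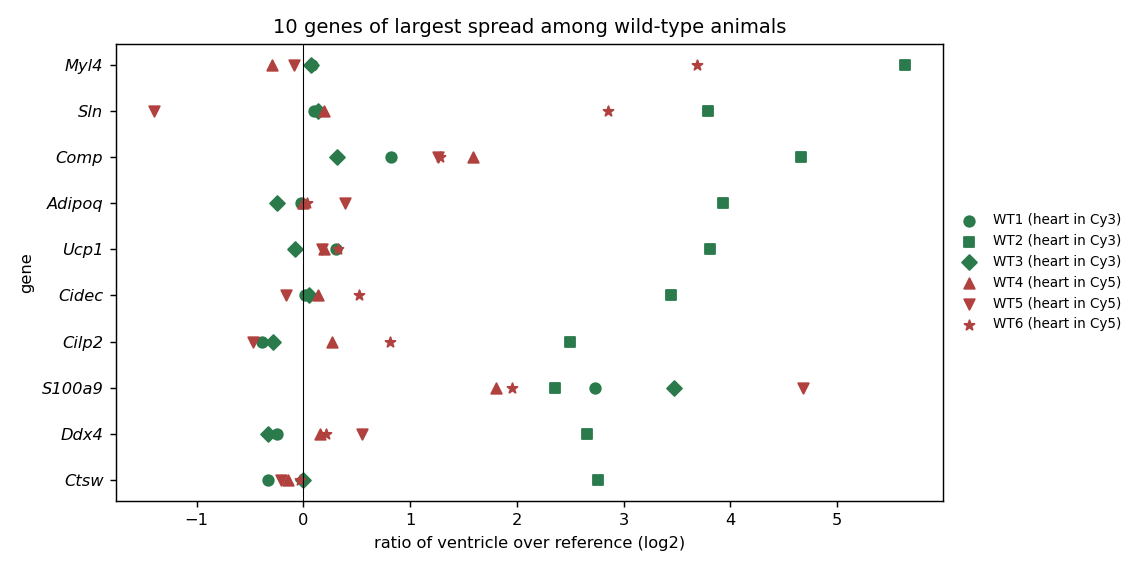
Log2 ratio of ventricle over reference on each wild-type array (symbols, green for heart RNA in Cy3, red for Cy5) for the 10 genes of largest residual SD among genes measured on all 6 arrays. WT replicate 2 is highest for 9 of the 10 genes, WT replicate 6 is second for Myl4 and Sln, and WT replicate 5 is highest for S100a9.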

How the data were processed

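Cardiac ventricle RNA of 6 wild-type mice was hybridised against a common reference RNA on 2-colour Agilent arrays. The authors deposited log ratios of ventricle over reference for 41174 probes, and these deposited values were read as log2. They arrive already normalized and turned to heart over reference, with array medians near 0. How background, normalization and empty cells were handled, and the base of the logarithm, are not given in the sources used here. Scanner intensities were not used, so signal over background is unknown. Each array is a separate animal, per the labels, and the reference is 1 RNA mixture, so p-values cover only the spread between these animals and arrays.

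Probes were named from the platform's annotation, in which 31700 probes have 1 gene symbol, 47 several and 9427 none. Names, chromosomes and promoters came from RefSeq GRCm38.p6. Probes without values on at least 2 arrays of each dye orientation (1097) were left out. Probes of a gene were joined by an additive fit of probe and array. limma 3.58.1 in R 4.3.3 fitted each feature with dye orientation as a term. The mean was tested against 0 (eBayes) and beyond 1 (treat), with Benjamini-Hochberg adjustment over all 27895 features and a threshold of 0.05. The procedure was tested on simulated data. Tables and plots used Python 3.11.15, pandas 2.3.3 and matplotlib 3.10.9.

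Gene lists, pairs and markers were chosen with earlier results of these data known, and no list was tested. Named are the 15 highest and 15 lowest genes on all 6 arrays, the 3 highest and 3 lowest of each list, both genes of each pair, defining markers, the 10 most variable genes, and Prkaa1 and Prkaa2. Genes that make up a count of 5 or fewer, and exceptions singled out, were named after their values were seen. Alternatives covered the dye term and each orientation alone, centring, quantile normalization, missing values, the joining of probes, the variance model, array weights and leaving out each replicate.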

Additional observations from a re-analysis of the deposited data

Results flagged for a closer look

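Single arrays stood apart from the other wild-type arrays for 16 of the 190 genes named and for 7 of 54 list medians tested. Chance sets about 1 in 20 groups apart in this way, which is the nominal rate of the rule and was not measured here. The count of genes cannot be compared with that rate, since some genes were named for their large spread between arrays. Adipoq, Cidec, Ucp1, Comp, Ctsw and Ddx4 are such genes. WT replicate 2 was the high one in 11 of these 23 cases. It was far above the others for Adipoq (3.93, others up to 0.39), Cidec (3.45, others up to 0.52), Ucp1 (3.81, others up to 0.32), Comp (4.66, others up to 1.59), Ctsw (2.76, others up to -0.01), Ddx4 (2.65, others up to 0.55), Myl7 (7.19, others up to 2.17) and C1qa (3.98, others up to 3.31). The list medians it raised were those of adipocyte markers (3.45), of channels, pumps and connexins (2.10, others up to 1.76) and of basement membrane and matrix genes (1.29, others up to 0.74).

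WT replicate 3, the array with most empty cells, stood apart in 6 cases. It was low in the calcium-cycling median (1.74, from 12 of the 16 genes, others from 2.70), in the germ line and pluripotency median (-0.30, from 9 of 12 genes), in Gamt (-0.60) and in Nrf1 (-0.67). It was high in the median of G1 genes (0.014, from 18 of 26 genes, others up to -0.59) and in Myl2 (5.66, others up to 5.22). The part of the empty cells in these values was not tested.

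WT replicate 6 was low for Ifi202b (-7.44, others from -5.64), Vtn (3.37, others from 4.07) and Dcn (1.23, others from 1.77). WT replicate 1 was high for Actc1 (6.40, others up to 5.70), WT replicate 4 was low for Pgam1 (-3.43, others from -2.95), and the median of the nasal receptor genes was 0.19 on WT replicate 5, against at most 0.065 on the others.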

How the results depend on the processing

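No paired analysis was possible because only wild-type arrays were used, with 1 array per replicate number. Counts of features above and below the reference stayed within 1.5 times under every alternative run, except that 715 features were past 1 below it with heart RNA in Cy3 alone (1099 over all arrays). The dye orientation test called 15 features without WT replicate 5, against 0 with all arrays. Depth cannot be judged, since intensities were not used. The alternative without the array with most empty cells is the one without WT replicate 3. The causes below were not tested beyond what each setting leaves out.

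With 1 probe per gene, list medians became 5.71 for sarcomere, 3.74 for calcium cycling, 2.15 for channels, 0.25 for heart receptors, 1.93 for creatine and energy transfer, 0.55 for nuclear receptors, 0.093 for clock, -2.88 for mitosis, -0.71 for nucleotide synthesis, -0.56 for tRNA synthetases, 4.35 for small heat shock proteins, -0.70 for cholesterol synthesis and -0.35 for collagens. With features on all 6 arrays they became 1.23 for calcium cycling, 1.82 for creatine and energy transfer, 2.62 for ketone and branched-chain oxidation, -0.88 for glycolysis, 0.58 for the mitochondrial ribosome, 0.65 for nuclear receptors, -0.019 for G1 genes, -2.18 for serine and one-carbon supply, -0.67 for cholesterol synthesis and -0.88 for keratins. With Cy3 alone the proteasome median was 0.29 and that of keratins -0.50. With Cy5 alone that of serine and one-carbon supply was -2.08 and that of proteases -1.003. The plain mean over probes gave -0.59 for ribosome biogenesis. Leaving out a replicate moved only the tRNA synthetase median (-0.76 to -0.66).

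Over the 100 highest and lowest genes, shares became 2.90% of low promoters for the GATA site, 25% of high promoters for the GC box and 0% for the NRF1 site. Of 190 named genes, 174 kept their call against 0, and its direction where there was one, in every alternative. Losing only the call beyond 1 was not counted as a change, nor was a turn of sign in a gene without a call. Of the 2577 features past 1, 1953 stayed past 1 with heart RNA in Cy3 alone. Among genes with a call against 0, signs turned for Cox6a1 with Cy3 alone (0.057). With 1 probe per gene they turned for Cspg4 (-0.2564), Myh4 (-0.0003), Ndufv3 (-0.45), Pdlim5 (-0.56) and Pecam1 (-0.021). That setting takes the probe with most values and, among ties, the lowest identifier. For the last 3 genes the probe was tied, and the others measured on all 6 arrays lay at -0.61 for Ndufv3, 4.53 and 4.53 for Pdlim5 and 1.10 for Pecam1.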

Other observations

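Probes of the same gene often gave different ratios. The genes in this paragraph and the next were picked after their values were seen. Of 8025 genes with several probes, the median distance between the highest and lowest probe mean was 0.38 on the log2 scale, 58.6% of genes stayed under 0.5, and 157 exceeded 3. Of 730 genes past 1 with several probes, 196 had a probe within 0.5 of the reference and 41 had a probe of the opposite sign. In 14 genes one probe lay over 1 above the reference and another over 1 below it. Which transcript each probe reads was not tested.

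Tpm1, alpha-tropomyosin, which is spliced differently in muscle and in other cells, was the widest of these. Of its 3 probes 2 had means of 6.25 ± 0.40 and 5.94 ± 0.27, and the remaining one -1.72 ± 0.21 (SD, n = 6 each). The last ran from -1.94 to -1.38, so the probes did not overlap on any array. Pik3r1, the regulatory subunit of phosphoinositide 3-kinase, had 4 probes with means of 1.51, 0.76, -0.77 and -3.98. Tubb6, a beta-tubulin, had 2, at 2.26 and -2.27. Pdlim5 had 2 probes at 4.53 and 3 between -0.62 and -0.15.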
